A study of Mus musculus with 21 samples.

Results

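RNA levels were followed across age for 8 genes that carry or report the progesterone response of the uterine lining. These are Hand2, Nr2f2, Gata2, Fst, Sgk1, Fkbp5, Zbtb16 and Errfi1. They were chosen by gene symbol, and 7 of the 8 are among the 12791 genes listed. The response to progesterone itself was not tested. Fst, the gene of follistatin, a secreted protein that binds and blocks activin, is not listed and was not analysed here. RNA came from whole uteri of C57BL/6J mice, all wild type, aged 5 weeks (7 libraries), 8 weeks (7) or 60 to 79 weeks (6, called aged here). All groups shared the hormone treatment: pregnant mare serum gonadotropin, which acts like follicle-stimulating hormone, was injected 48 hours before dissection at 5 or 7.5 units, without an assignment of dose to animal. The labels number the libraries but do not name the animals behind them, so p-values measure the spread between these libraries.

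In the uterus, progesterone binds its receptor in epithelium and stroma, the connective tissue under the epithelium, and the stroma answers by stopping epithelial growth and by preparing to become the decidua that holds an embryo. Signals pass between the layers: the epithelium sends Indian hedgehog to the stroma, and the stroma controls the fibroblast growth factors that reach the epithelium. Several genes of the response, among them Fkbp5, Sgk1 and Zbtb16, are also induced by glucocorticoids, whose receptor reads the same DNA element.

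Replicate numbers and sample names divide the libraries into an earlier and a later set. Replicates 1 and 2 form the earlier set (6 libraries, its old animals aged 60 to 75 weeks), and the other 14 libraries, with old animals of 79 weeks, form the later set. Over the listed genes, earlier libraries held 12204573 to 14448283 reads, later ones 19100690 to 30689439, computed from the step between values. The 80 genes of cytosolic ribosomal proteins took 1.87% to 2.49% of the counts of listed genes in earlier and 9.99% to 19.9% in later libraries. What else differs between the sets (the instrument, the RNA kit or the age of the old animals) cannot be told apart. The column headers, which were used here to name the libraries, go against the sample of their file for 15 of 20 columns, and in 2 cases, 5w replicate 3 and 8w replicate 3, against its age. All 6 uterine tissue markers fixed for this check (Hoxa10, Hoxa11, Esr1, Pgr, Wt1 and Emx2) were present, with a summed level of 552 to 1404 CPM (counts scaled to the same total in each library).

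Levels per kilobase of exon, the scale on which genes can be compared, are given by set. Errfi1 had the highest median in the later set, 50.2 CPM per kb, and Gata2 in the earlier set, 40.5 CPM per kb, where Errfi1 followed with 31.6. Among later libraries Hand2 (15.7), Sgk1 (15.1), Gata2 (14.3) and Nr2f2 (12.4 CPM per kb) lay close together, and their ranges overlapped. The earlier medians were 17.4 CPM per kb for Nr2f2, 14.5 for Sgk1 and 7.37 for Hand2. Fkbp5 (1.97 in earlier and 1.93 in later libraries) and Zbtb16 (0.37 CPM per kb in the earlier set) had the lowest medians in both sets. Over 20 libraries their ranges, 0.52 to 5.32 and 0.16 to 6.57 CPM per kb, overlapped each other, and the highest Zbtb16 value lay above the lowest of Gata2 (5.90 CPM per kb) and of Hand2.

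Promoters were taken from the RefSeq table of GRCm38.p6, where 6 of the 8 members matched. Each window runs from 250 bases before a start site to 50 after it. The first 2 are shown because Sgk1 and Fkbp5 are both genes induced by steroid receptors, and capitals mark, in Sgk1, TGTTCT on either strand with the palindrome GNACANNNTGTNC (the arm TGTNC and its reverse complement, 3 bases apart) with the letters that flank it, and, in Fkbp5, GGGCGG, the core of a GC box. Where a gene has several start sites, the window is the first by position, except for Sgk1, where it is the one with the palindrome. The windows are Sgk1 at chr10:21993640-21993939 (plus strand) and Fkbp5 at chr17:28486100-28486399 (minus strand).
Sgk1: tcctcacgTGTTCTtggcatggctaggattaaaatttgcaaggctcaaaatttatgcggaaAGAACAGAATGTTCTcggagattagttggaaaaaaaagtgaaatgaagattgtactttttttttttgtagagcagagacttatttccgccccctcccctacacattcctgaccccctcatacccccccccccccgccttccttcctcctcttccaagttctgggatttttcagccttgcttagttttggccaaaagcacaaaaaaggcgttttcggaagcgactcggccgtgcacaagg
Fkbp5: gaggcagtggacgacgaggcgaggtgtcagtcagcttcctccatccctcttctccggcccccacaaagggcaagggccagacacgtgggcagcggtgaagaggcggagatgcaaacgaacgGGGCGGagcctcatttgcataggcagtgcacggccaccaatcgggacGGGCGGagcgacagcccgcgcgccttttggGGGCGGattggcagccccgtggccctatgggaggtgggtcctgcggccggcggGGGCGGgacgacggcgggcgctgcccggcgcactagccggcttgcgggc
RefSeq lists 6 start sites for Sgk1, and the full palindrome was found in 1 of their windows, as GAACAGAATGTTC from -188 to -176. That motif, GNACANNNTGTNC, was found in 0.475% of 32851 promoter windows of the same 300 bases, and its arm TGTTCT, on either strand, in 19% of them. In the Sgk1 window 3 copies of the arm were found, 2 of which are the arms of the palindrome and overlap it. The Fkbp5 window held 4 copies of GGGCGG, which either strand of 35.7% of all windows holds, and no match to the palindrome or its arm. A match is a run of letters and not a shown binding site.

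Across age, 0 of the 7 members listed passed the test between aged and 8-week uteri, where 17.2% of all 12791 genes did. Between aged and 5-week uteri 0 of 7 passed, against 22.1% of all genes, and between 8 and 5 weeks 0 of 7, against 0% (139 genes at an unadjusted p under 0.05). The test was limma on log2(CPM + 1) with the set as a term, adjusted by the Benjamini-Hochberg method over all genes at 0.05. Fold changes on this scale understate the change of low genes. All 3 counts were also 0 with columns named by file and without the 2 libraries whose file names another age. The members' median log2 difference was 0.32 between aged and 8 weeks, beside 0.05 over all genes, and 0.15 between aged and 5 weeks, beside 0.09. Both comparisons use the same aged libraries. In whole-tissue RNA, fewer cells of a type and less RNA per cell cannot be told apart.

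**Figure D1:**
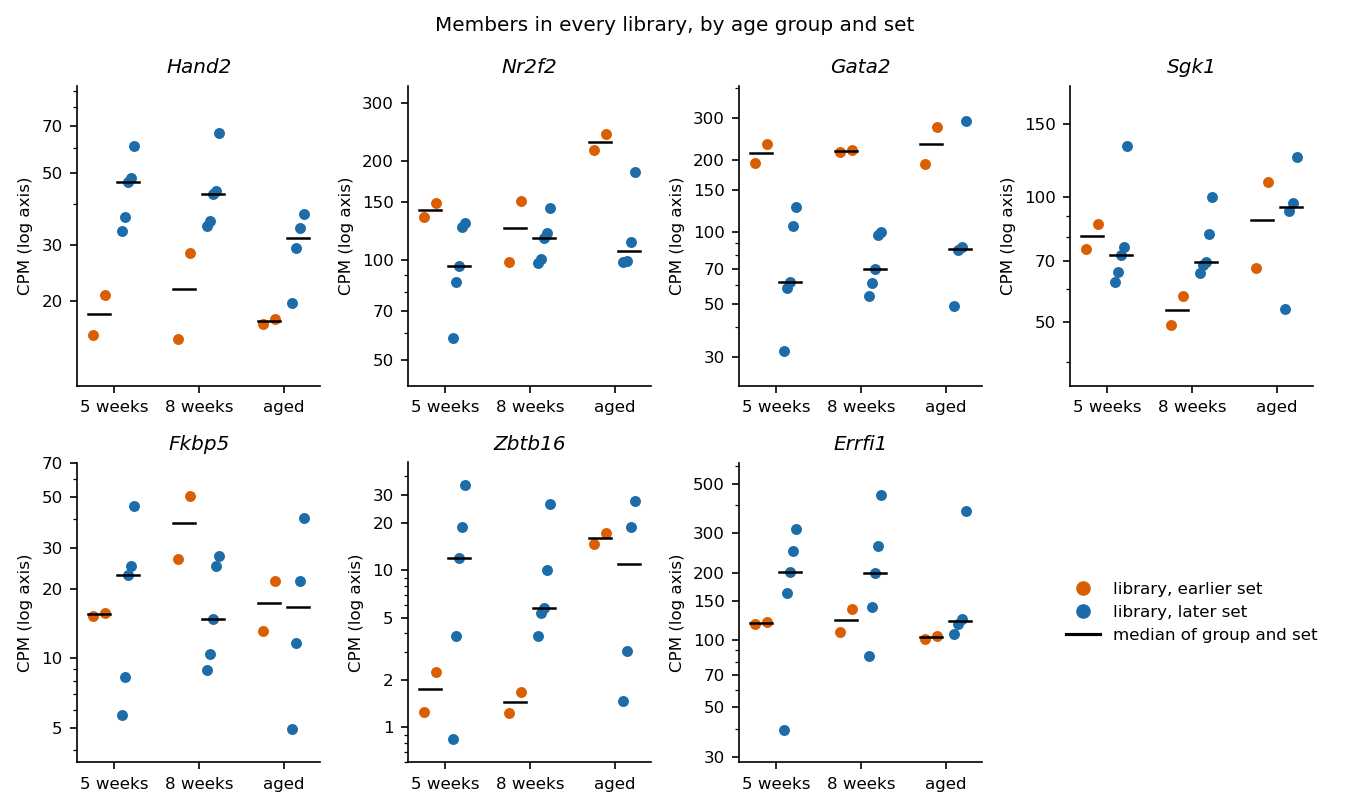
CPM of each member (log axes) in every library by age group, with the earlier set in orange, the later set in blue and a bar at the median of each group and set. Hand2 lies higher in the later set in 13 of 14 libraries and Gata2 lower in 13 of 14, while the age groups overlap within the later set for every member.

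The first 3 members are transcription factors. Hand2 (GRCm38 chromosome 8, 57320983 to 57324633, plus strand) is a stromal factor that progesterone induces and that holds back fibroblast growth factor production. In the later set its level was 60.7, 36.7, 48.2, 33.0 and 47.1 CPM at 5 weeks, 43.2, 35.6, 34.3, 66.6 and 44.0 at 8 weeks, and 29.3, 33.7, 37.3 and 19.7 in aged uteri. Earlier libraries held 20.9 and 15.7 CPM at 5 weeks, 28.4 and 15.3 at 8 weeks, and 17.6 and 17.0 in aged uteri. Aged libraries thus lay at the low end of the later set, 2 of 4 under all 10 younger ones, and inside the younger range in the earlier set. The log2 fold change from 8 weeks to aged was -0.46 ± 0.20 (SE; 95% interval -0.88 to -0.04), with an unadjusted p of 0.0345 and an adjusted p of 0.123. Against 5 weeks it was -0.42 ± 0.20 (adjusted p = 0.141), and neither difference passed the threshold under any of 32 alternatives, all of which gave a lower level in aged uteri.

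Hand2 differed between the sets. It was higher in the later set by 1.00 ± 0.18 on the log2 scale (2.00-fold, adjusted p = 0.000101), and 13 of 14 later libraries lay above all 6 earlier ones. The set term passed for 58.7% of all genes, 20.5% higher and 38.3% lower in the later set, with a median log2 difference of -0.20. The Hand2 difference passed under every scaling and with each library left out (0.90 to 1.10). On the other strand, Hand2os1, a noncoding RNA gene that covers 19.6% of the exon length of Hand2, was at 4.75 to 13.2 CPM in earlier and 15.8 to 61.3 CPM in later libraries, higher by 2.28 ± 0.27 (adjusted p = 1.54e-06). The library kit did not mark strand, so reads from the shared stretch cannot be told apart between the 2 genes.

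Nr2f2 (chromosome 7, 70351944 to 70366735, minus strand) encodes COUP-TFII, a nuclear receptor that the stroma makes in answer to Indian hedgehog. Its level in the earlier set was 149 and 135 CPM at 5 weeks, 151 and 98.8 at 8 weeks, and 241 and 216 in aged uteri. In the later set it was 129, 95.9, 126, 58.3 and 86.0 CPM at 5 weeks, 98.2, 101, 121, 144 and 117 at 8 weeks, and 114, 99.4, 98.9 and 185 in aged uteri. The aged libraries of the earlier set stood above all 4 younger ones, whereas in the later set only aged replicate 7 stood above all 10. Over both sets the log2 fold change was 0.32 ± 0.20 against 8 weeks (adjusted p = 0.295) and 0.45 ± 0.20 against 5 weeks (95% interval 0.03 to 0.88, unadjusted p = 0.0390, adjusted p = 0.116).

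Within the earlier set alone, aged uteri had more Nr2f2 than 8-week uteri by 0.90 ± 0.23 (adjusted p = 0.0312), and within the later set alone the difference was 0.06 ± 0.25 (adjusted p = 0.940). The test of the difference between the sets gave -0.84 ± 0.42 (adjusted p = 0.370), so the sets were not shown to differ in it. Marker levels moved with Nr2f2 in the earlier set, where the epithelial sum was 4528 and 4606 CPM in the aged libraries against 6818 to 9980 in the younger ones and the lymphatic sum 465 and 852 CPM against 73.9 to 155. The blood vessel, leukocyte and red blood cell sums of these aged libraries also lay above all younger ones of the set. Over the 6 earlier libraries r of Nr2f2 was -0.95 with the epithelial and 0.88 with the lymphatic sum, as a description. With the stromal sum it was 0.75 and with the smooth muscle sum 0.61, and the part of these markers in the result was not tested. Of the 7 members 0 passed the test of the difference between the sets, where 0.0235% of all genes did, and 0 passed the like test against 5 weeks, where 0% did (1079 genes at an unadjusted p under 0.05). Nr2f2 passed the comparison of aged with 5 weeks under quantile normalization (0.55, adjusted p = 0.0474, 1 of 7 members against 23.1% of all genes) and with the ribosomal protein sum as a covariate (0.49, adjusted p = 0.0492, 1 of 7 against 31.7%).

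The level of Nr2f2 was lower in the later set by 0.52 ± 0.18 (adjusted p = 0.0183), but the call ended under quantile normalization (-0.22, adjusted p = 0.265), under median centring (-0.22, adjusted p = 0.194), with columns named by file (-0.27, adjusted p = 0.314) and without aged replicate 1 (-0.44, adjusted p = 0.0533). The noncoding gene B130024G19Rik, on the other strand, covers 7.46% of its exon length. It was at 1.93 to 7.82 CPM in the earlier and 5.83 to 25.7 CPM in the later set, higher by 1.84 ± 0.24 (adjusted p = 4.28e-06), the direction opposite to that of Nr2f2.

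Gata2 (chromosome 6, 88193891 to 88207032, plus strand), a zinc finger factor of epithelium and stroma, sustains the expression of the progesterone receptor. Among earlier libraries it was at 194 and 234 CPM at 5 weeks, 221 and 216 at 8 weeks, and 192 and 274 in aged uteri. Among later libraries it was at 127, 61.7, 106, 31.9 and 58.6 CPM at 5 weeks, 70.3, 61.4, 96.7, 100.2 and 53.8 at 8 weeks, and 86.3, 49.3, 84.2 and 291 in aged uteri. The set and not the age parted these values: 13 of 14 later libraries lay under all 6 earlier ones, and aged replicate 7 was the exception.

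The set difference of Gata2 was -1.45 ± 0.29 (2.73-fold lower in the later set, adjusted p = 0.000338). It passed under both scalings (-1.18 and -1.16) and ended with columns named by file (-0.89, adjusted p = 0.0892). Of the 7 members 1 was thus called higher and 2 lower in the later set, where 20.5% and 38.3% of all genes were. Against 8 weeks the aged log2 fold change of Gata2 was 0.32 ± 0.33 (95% interval -0.37 to 1.02, adjusted p = 0.536), and without aged replicate 7 it was -0.02. Against 5 weeks it was 0.41 ± 0.33 (adjusted p = 0.398), and 0.07 without that library.

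Marker levels also moved with the set. Summed over 10 epithelial markers, the level was 4528 to 9980 CPM in the earlier and 1678 to 6147 CPM in the later set, and over 10 smooth muscle markers 1478 to 16343 and 2749 to 26042 CPM. Aged replicate 7 had the lowest smooth muscle sum of the later set, 2749 CPM, against 14583 to 26042 in the other later aged libraries. Its epithelial sum was 5657 CPM, against 1678 to 3398 in those libraries. What part this had in its Gata2 and Nr2f2 levels was not tested. The sum of 10 endometrial stromal markers, 4328 to 7958 CPM in the earlier and 4652 to 9146 CPM in the later set, covered much the same range, though 6 of them passed as higher and 2 as lower in the later set. Their part in the set differences of Hand2, Nr2f2 and Gata2 was not tested.

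The next member is a kinase. Sgk1 (chromosome 10, 21882184 to 21999903, plus strand) is induced by steroids and raises sodium uptake by epithelial cells. Later libraries held 62.2, 75.8, 65.9, 72.3 and 132.5 CPM at 5 weeks, 81.5, 69.6, 100.03, 68.4 and 65.4 at 8 weeks, and 96.7, 125, 53.5 and 92.6 in aged uteri. Earlier libraries held Sgk1 at 75.0 and 86.2 CPM at 5 weeks, 48.9 and 57.8 at 8 weeks, and 109 and 67.4 in aged uteri. Both aged libraries of the earlier set were above the 8-week ones, but both 5-week libraries lay between them, and in the later set the aged range held 9 of 10 younger libraries with one 5-week library above it. The log2 fold change of Sgk1 was 0.35 ± 0.21 against 8 weeks (95% interval -0.08 to 0.78, adjusted p = 0.248) and 0.15 ± 0.21 against 5 weeks (adjusted p = 0.633).

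The next pair, both induced by steroids, varied widely between libraries. Fkbp5 (chromosome 17, 28399094 to 28517527, minus strand) encodes FKBP51, a partner of Hsp90 that lowers the affinity of steroid receptors for hormone. Its level in the later set was 5.71, 23.0, 45.5, 8.26 and 25.0 CPM at 5 weeks, 14.9, 8.87, 25.2, 10.4 and 27.6 at 8 weeks, and 11.7, 21.6, 4.96 and 40.5 in aged uteri. Earlier libraries had 15.8 and 15.3 CPM of Fkbp5 at 5 weeks, 50.4 and 26.9 at 8 weeks, and 21.6 and 13.1 in aged uteri. The age groups overlapped in the later set, and in the earlier set both 8-week libraries lay above the 5-week and aged ones, which overlapped. Within the later set the libraries of 1 age differed by up to 7.98-fold at 5 weeks, 3.11-fold at 8 weeks and 8.18-fold in aged uteri. The aged log2 fold change was -0.35 ± 0.47 against 8 weeks (95% interval -1.33 to 0.62, adjusted p = 0.638) and -0.07 ± 0.47 against 5 weeks (adjusted p = 0.926).

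Zbtb16 (chromosome 9, 48654297 to 48836222, minus strand) encodes PLZF, a zinc finger factor that progestins and glucocorticoids induce in endometrial stroma. Among earlier libraries its level was 1.25 and 2.25 CPM at 5 weeks, 1.23 and 1.69 at 8 weeks, and 17.3 and 14.6 in aged uteri. In the later set it was 0.84, 18.8, 34.7, 3.84 and 11.9 CPM at 5 weeks, 5.36, 5.75, 10.1, 3.81 and 26.6 at 8 weeks, and 3.06, 18.8, 1.47 and 27.7 in aged uteri. Both aged libraries of the earlier set stood far above the 4 younger ones, while in the later set the aged values lay within the span of the younger ones. The libraries at 5 weeks in the later set alone differed by up to 41.5-fold. The lowest of them, 0.84 CPM, was 5w replicate 3, 1 of the 2 libraries whose file names another age. That value and those of the 4 younger earlier libraries lie near the lowest value of any listed gene, 10 reads, so folds on them are imprecise.

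Over both sets the log2 fold change of Zbtb16 was 0.84 ± 0.71 against 8 weeks (95% interval -0.64 to 2.32, adjusted p = 0.437) and 0.75 ± 0.71 against 5 weeks (adjusted p = 0.474). Within the earlier set alone, with 2 libraries an age, it was 2.79 ± 0.30 (adjusted p = 0.00700) and 2.65 ± 0.30 (adjusted p = 0.00856). Within the later set alone it was -0.07 ± 0.87 and -0.14 ± 0.87 (adjusted p = 0.981 and 0.945). The difference between the sets was -2.86 ± 1.43 (adjusted p = 0.370) and -2.79 ± 1.43 (adjusted p = 0.633), so a difference in the age effect between the sets was not shown. Marker sums given beside Nr2f2 moved with Zbtb16 too, with r over the 6 earlier libraries of -0.88 for the epithelial and 0.93 for the lymphatic sum. For the stromal sum r was 0.39 and for the smooth muscle sum 0.58, and the part of these markers was not tested. In the earlier set alone, Zbtb16 and Nr2f2 made 2 of 7 members called against 8 weeks, where 28.2% of all genes were, and Zbtb16 1 of 7 against 5 weeks, where 20.4% were. In the later set alone 0 of 7 were called, against 1.43% and 4.09% of all genes.

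**Figure D2:**
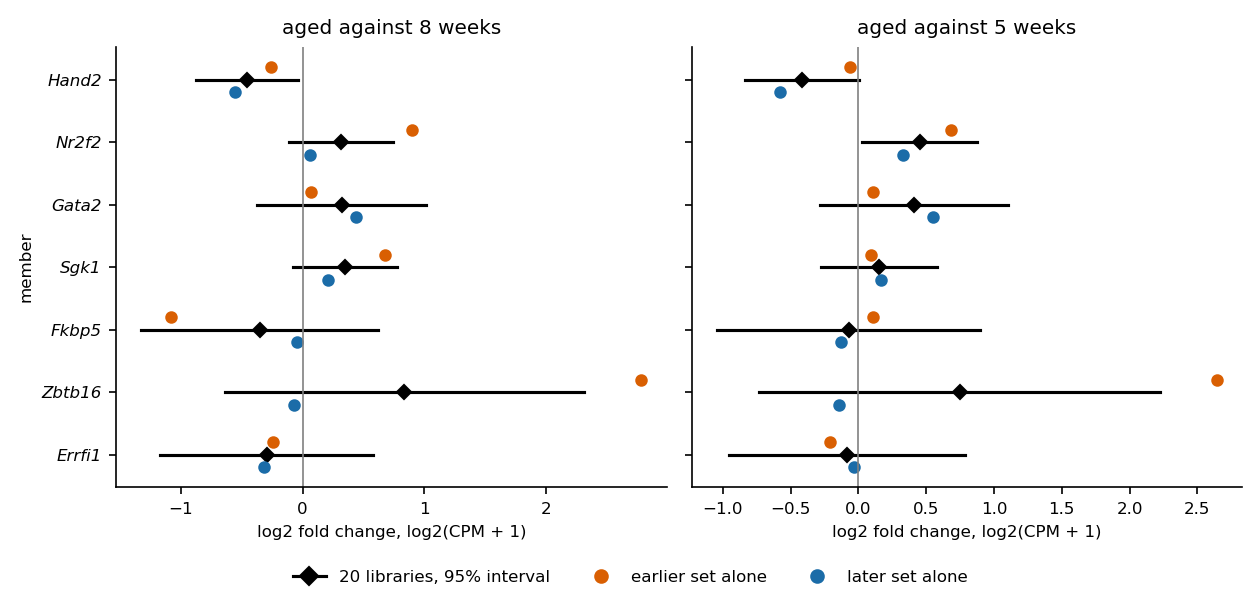
Log2 fold change of aged uteri against 8 weeks (left) and 5 weeks (right), with diamonds and 95% intervals from the fit of 20 libraries and dots from each set alone. The earlier set places Zbtb16 at 2.79 and 2.65, outside the interval of the joint fit, and the later set places it near 0.

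The last member works against growth factor signals. Errfi1 (chromosome 4, 150853919 to 150868892, plus strand) encodes MIG6, which binds and inhibits the epidermal growth factor (EGF) receptor and which progesterone induces in the uterus. Its level in the later set was 39.6, 315, 202, 162 and 251 CPM at 5 weeks, 141, 198, 263, 84.7 and 445 at 8 weeks, and 107, 379, 118 and 124 in aged uteri. Earlier libraries had 118 and 120.2 CPM of Errfi1 at 5 weeks, 108 and 137 at 8 weeks, and 104 and 101 in aged uteri. Both aged earlier libraries lay under the 4 younger ones, but in the later set the ages overlapped. The 6 earlier libraries lay within 1.35-fold of each other, the 14 later ones within 11.2-fold. The aged log2 fold change of Errfi1 was -0.30 ± 0.42 against 8 weeks (95% interval -1.17 to 0.58, adjusted p = 0.663) and -0.08 ± 0.42 against 5 weeks (adjusted p = 0.904).

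The members parted in how much they varied once age and set, in all combinations, were accounted for. The residual SD of Zbtb16 was 1.32 on the log2 scale, above that of 99.4% of all genes. Fkbp5 (0.93) stood above 96.9%, Errfi1 (0.88) above 96.0% and Gata2 (0.69) above 88.7%. Sgk1 (0.38), Hand2 (0.37) and Nr2f2 (0.36) were close to the median gene, which had 0.40. These percentiles are descriptions, with no test.

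Among the 21 pairs of members, 3 rose and fell together over the 14 libraries of the later set (permutation test, 100000 resamples, two-sided, adjusted over the 21 pairs). The share of all gene pairs that would pass such a test was not computed. Whether 3 of 21 is more than other genes would give is therefore not known. Fkbp5 and Zbtb16, both steroid-induced, had Pearson's r = 0.946 and Spearman's rho = 0.899 (permutation p = 1e-05 and 4e-05, the first the smallest the resamples can give; adjusted p = 0.00021). Without the 2 libraries farthest from the median of Fkbp5, r was 0.916, and on deviations from the age means it was 0.946. The lowest Zbtb16 values, 0.84 CPM in 5w replicate 3 and 1.47 in aged replicate 6, fell in the libraries with the lowest Fkbp5, and the highest of each, 34.7 and 45.5 CPM, in 5w replicate 5. Among all other listed genes, the one most like Fkbp5 over these libraries was Zbtb16, and the one most like Zbtb16 was Fkbp5.

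Nr2f2 and Gata2 had r = 0.893 and rho = 0.793 in the later set (permutation p = 5e-05 and 0.00121, adjusted p = 0.000525). The relation held without the 2 libraries farthest from the median of Nr2f2 (r = 0.719) and without aged replicate 7 (r = 0.845, adjusted p = 0.00308). Zbtb16 and Errfi1 had r = 0.745 and rho = 0.727 (permutation p = 0.00197 and 0.00441, adjusted p = 0.0138), and r = 0.698 without the 2 libraries farthest from the median. The call for Zbtb16 and Errfi1 ended without 5w replicate 3 (r = 0.645, adjusted p = 0.135), the library with the lowest level of both.

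Over the 6 libraries of the earlier set r was -0.41 for Fkbp5 and Zbtb16, 0.08 for Nr2f2 and Gata2, and -0.68 for Zbtb16 and Errfi1 (exact permutation p = 0.424, 0.881 and 0.181), and 0 of 21 pairs passed the adjustment. Whether r differs between the sets was not tested. With the ribosomal protein sum regressed out, 6 pairs passed in the later set, among them these 3 (r = 0.909, 0.863 and 0.721).

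**Figure D3:**
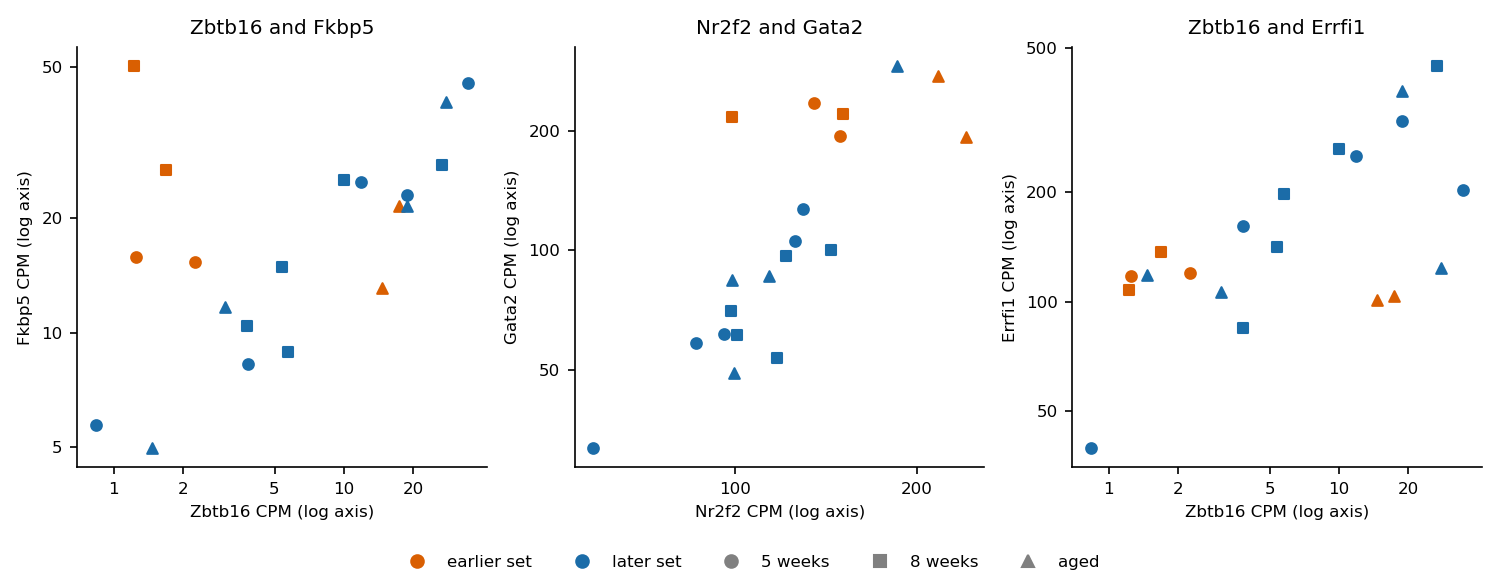
CPM of the 3 pairs called in the later set, on log axes, 1 point a library, with the set by colour and the age by shape. Later libraries of all ages rise together from 0.84 CPM of Zbtb16 upward in the first panel, where the 4 younger earlier libraries lie above that band, and all 6 earlier libraries are at 192 CPM of Gata2 or more in the second.

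The promoters of Nr2f2 at chr7:70366697-70366996 (minus strand) and Gata2 at chr6:88193641-88193940 (plus strand) are shown because these factors moved together in the later set. Capitals again mark GGGCGG.
Nr2f2: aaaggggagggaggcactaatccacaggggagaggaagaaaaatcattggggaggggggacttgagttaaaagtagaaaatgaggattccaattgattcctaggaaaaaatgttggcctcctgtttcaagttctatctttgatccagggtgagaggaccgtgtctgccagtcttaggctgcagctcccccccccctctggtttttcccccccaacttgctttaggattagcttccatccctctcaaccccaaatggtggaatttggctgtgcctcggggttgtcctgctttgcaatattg
Gata2: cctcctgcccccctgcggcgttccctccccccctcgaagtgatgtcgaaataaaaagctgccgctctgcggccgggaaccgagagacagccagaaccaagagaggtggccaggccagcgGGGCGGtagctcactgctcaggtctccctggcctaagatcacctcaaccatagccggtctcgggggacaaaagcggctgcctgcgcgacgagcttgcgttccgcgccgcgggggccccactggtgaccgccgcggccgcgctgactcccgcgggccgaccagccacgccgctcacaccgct
The Gata2 window is 69.3% G and C and holds 1 GGGCGG, from -131 to -126, and the Nr2f2 window is 49.7% G and C and holds no match. Another Gata2 start site has a window at chr6:88198414-88198713, not shown, which is 73.7% G and C and holds 3 GGGCGG. All windows had a median of 52.7%. AGATAA, a form of the letters that GATA factors bind, was found in neither window shown and in 11.2% of all windows on either strand. Other forms were not searched for, so these windows are not shown to lack a site for GATA factors.

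Marker sums and members were compared across the later set to see which tissue the members moved with. Of 35 relations (7 members with stromal, epithelial, smooth muscle and lymphatic marker sums and with the ribosomal protein sum), 0 passed the permutation test adjusted over the 35, and 7 had an unadjusted p under 0.05. The strongest, Fkbp5 with the ribosomal protein sum, had r = -0.68 and rho = -0.66 (permutation p = 0.00864 and 0.0116, adjusted p = 0.213), and r = -0.59 without the 2 most distant libraries. Hand2 and the stromal sum had r = 0.47 and rho = 0.22 (permutation p = 0.0912 and 0.442, adjusted p = 0.319). Gata2 had r = -0.55 with the stromal sum and 0.29 with the epithelial sum (adjusted p = 0.220 and 0.595). With the smooth muscle sum its r was -0.62 and with the lymphatic sum 0.57 (adjusted p = 0.213 for each). Without the 2 most distant libraries these values of r were, in the same order, -0.23, -0.03, 0.09 and 0.61. Which layer of the uterus the RNA of the members came from was not tested.

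The genes most like each member over the later set were found by Pearson's r of log2(CPM + 1) over its 14 libraries. They were chosen as the highest of all genes, so the values are descriptions. For Hand2 they were Lsamp (0.869), Hoxa11 (0.857), a homeobox factor of the uterine stroma, and Aldh1a2 (0.826), which makes retinoic acid. Hoxa11 had r = 0.853 with Hand2 in the 6 earlier libraries as well, against 0.254 for Lsamp and 0.384 for Aldh1a2. For Nr2f2 they were Fem1c (0.928, and 0.974 in the earlier set), Gmip (0.922 and 0.595) and Gatad2b (0.918 and 0.888). For Gata2 they were the planar polarity gene Vangl2 (0.957 and 0.811), Sox17 (0.955 and 0.574), a factor of endometrial epithelium and endothelium, and Mgat3 (0.951 and 0.692).

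The kinase Sgk1 had weaker partners: the glucose transporter gene Slc2a3 (0.797), Ccng1 (0.785) and Zfp758 (0.767). After Zbtb16, Fkbp5 was most like Rsbn1 (0.940) and Zc3h11a (0.938), with r of -0.35 and -0.25 in the earlier set. After Fkbp5, Zbtb16 was most like Zc3h11a (0.943) and Stk39 (0.928), with r of 0.00 and -0.04 in the earlier set. Errfi1 was most like the laminin gene Lamb1 (0.939), Colgalt2 (0.924) and the interleukin 4 receptor gene Il4ra (0.917), with r of -0.20, -0.64 and 0.70 in the earlier set. For Fkbp5 and Zbtb16 the 3 most alike genes had r of 0.00 or below, to 2 decimals, in the earlier set.

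Steroid receptors come first among the other genes of the pathway. Pgr, the progesterone receptor, was at 40.5 to 236 CPM (median 141) at 5 weeks, 25.4 to 169 (157) at 8 weeks and 69.9 to 419 (88.4) in aged uteri. These levels are over both sets, whereas the fit holds the set as a term. The log2 fold change of Pgr was -0.03 ± 0.44 against 8 weeks and -0.06 ± 0.44 against 5 weeks (adjusted p = 0.972 and 0.942). Within the earlier set alone it was 0.19 and 0.03, and within the later set alone -0.13 and -0.10, and none of these passed. Esr1, the estrogen receptor, differed by 0.27 ± 0.21 and 0.37 ± 0.21 (adjusted p = 0.378 and 0.210), and Nr3c1, the glucocorticoid receptor, by 0.41 ± 0.22 and 0.38 ± 0.22 (adjusted p = 0.205 and 0.229). Neither passed, though Nr3c1 did within the earlier set alone (1.30 and 0.86, adjusted p = 0.0131 and 0.0416, against 0.01 and 0.14 in the later set).

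Nr3c2, the mineralocorticoid receptor, was the receptor that rose. It averaged 2.18 ± 1.19 CPM (SD, n = 7) at 5 weeks, 2.02 ± 0.91 (n = 7) at 8 weeks and 8.71 ± 5.42 (n = 6) in aged uteri. It rose 2.92-fold against 8 weeks and 2.82-fold against 5 weeks (SE 0.30 on the log2 scale in each, adjusted p = 0.00188 and 0.00180), and the calls held with any 1 library left out. Within the sets Nr3c2 changed by 2.81 and 2.32 in the earlier and by 0.97 and 1.10 in the later set, where it did not pass (adjusted p = 0.150 and 0.0587).

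Of the receptor complex, Hsp90aa1, the inducible Hsp90 that holds steroid receptors ready for hormone and that FKBP51 binds, fell by 0.88 ± 0.24 and by 0.80 ± 0.24 in log2 units (adjusted p = 0.0165 and 0.0218). Those calls ended without aged replicate 1 (-0.71 and -0.63, adjusted p = 0.0529 and 0.0652), with no set term (adjusted p = 0.453 and 0.459), in the later set alone (0.287 and 0.251) and with columns named by file (0.549 and 0.306). Ptges3, the Hsp90 cochaperone p23, fell by 0.67 ± 0.18 against 8 weeks (adjusted p = 0.0146), a call that ended with no set term (-0.71, adjusted p = 0.167), in the later set alone (-0.47, adjusted p = 0.333) and with columns named by file (-0.48, adjusted p = 0.294). In all, of the 19 receptor and complex genes measured (of 20), 1 rose and 2 fell against 8 weeks, where 8.64% and 8.53% of all genes did, and 1 rose and 1 fell against 5 weeks, where 12.7% and 9.41% did. The list's median difference was 0.15 and 0.12.

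Other progesterone-response genes of the uterus numbered 19 measured of 24. Against 8 weeks 0 rose and 2 fell, where 8.64% and 8.53% of all genes did. Against 5 weeks 3 rose and 2 fell, where 12.7% and 9.41% did. The medians were 0.53 and 0.44, beside 0.05 and 0.09 over all genes. Hsd11b2, which inactivates glucocorticoid, averaged 342 ± 317 CPM (n = 7) at 5 weeks, 273 ± 168 (n = 7) at 8 weeks and 59.2 ± 62.2 (n = 6) in aged uteri. It fell by 2.43 ± 0.60 against 8 weeks and by 2.53 ± 0.60 against 5 weeks (log2, adjusted p = 0.00935 and 0.00543), and the calls held with any 1 library left out. Hsd11b2 differed by -3.16 and -2.83 within the earlier set and by -2.10 and -2.38 within the later set, where it did not pass (adjusted p = 0.226 and 0.106).

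Snai2, a factor of mesenchymal cells, fell by 1.22 ± 0.37 and by 1.23 ± 0.37 (adjusted p = 0.0303 and 0.0236), and the first call ended in 7 and the second in 1 (aged replicate 7) of the 20 fits that left out a library. Against 5 weeks Alox15, a lipoxygenase, rose by 1.71 ± 0.59 (adjusted p = 0.0431) and Sox17 by 1.12 ± 0.39 (adjusted p = 0.0430), calls that ended in 10 and 11 of those 20 fits. Smo, the hedgehog signal transducer, rose by 0.86 ± 0.26 (adjusted p = 0.0230) and is named here after its value was seen. Its call ended without 5w replicate 1 or aged replicate 2, with values as low as 0.69.

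Of 17 corticosteroid-induced genes, all measured, 0 passed against 8 weeks (median 0.33) and 2 against 5 weeks (median 0.06). Of all genes 17.2% and 22.1% did. Klf15, a factor of metabolic genes, rose by 0.82 ± 0.26 (adjusted p = 0.0287), a call that ended in 5 of the 20 fits with a library left out. Angptl4, an inhibitor of lipoprotein lipase, fell by 1.09 ± 0.29 (adjusted p = 0.0125). The members Fkbp5, Sgk1 and Zbtb16, which share this induction, did not pass in either comparison.

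Downstream of Hand2, 9 of 10 fibroblast growth factor and related genes were measured, with medians of 0.02 and 0.04. Fgfr2, an epithelial receptor for these factors, averaged 57.8 ± 25.0 CPM at 5 weeks (n = 7), 55.2 ± 14.8 at 8 weeks (n = 7) and 105 ± 32.8 in aged uteri (n = 6). It rose by 0.89 ± 0.29 and by 0.90 ± 0.29 (adjusted p = 0.0387 and 0.0300), calls that ended in 8 and 7 of the 20 fits that left out a library. Fgfr1 rose by 0.86 ± 0.26 against 5 weeks (adjusted p = 0.0225), and that call ended without aged replicate 2 or 5w replicate 7, with values as low as 0.68. No other gene of this list passed, so 1 of 9 rose against 8 weeks and 2 against 5 weeks, where 8.64% and 12.7% of all genes did.

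Around Sgk1, 9 of 11 relatives and targets were measured, and 2 rose in both comparisons, where 8.64% and 12.7% of all genes did. The list medians were 0.14 and 0.08. Scnn1a, a subunit of the epithelial sodium channel that SGK1 keeps at the cell surface, averaged 4.16 ± 2.83 CPM (n = 7) at 5 weeks, 4.04 ± 2.40 (n = 7) at 8 weeks and 24.9 ± 18.8 (n = 6) in aged uteri. Its log2 fold change was 2.17 ± 0.41 in both comparisons (adjusted p = 0.00157 and 0.00114), and the calls held with any 1 library left out. Scnn1a changed by 2.37 and 2.32 within the earlier and by 2.08 and 2.09 within the later set (adjusted p = 0.0753 and 0.0443 in the later). Ndrg1, a substrate of SGK1, rose by 0.90 ± 0.30 and by 0.85 ± 0.30 (adjusted p = 0.0466 and 0.0499), calls that ended in 13 and 15 of the 20 fits.

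Naming, set and set term bore on these calls. Of the 8 calls against 8 weeks named in the pathway lists, those of Nr3c2, Hsd11b2 and Scnn1a were the 3 that passed with no set term and also the 3 that passed with columns named by file. Of the 14 calls against 5 weeks, 5 passed with no set term (Angptl4, Fgfr1, Hsd11b2, Nr3c2 and Scnn1a) and 8 with columns named by file. Fitted in the later set alone, 0 of the 8 and 1 of the 14 passed, the latter Scnn1a, and in the earlier set alone 6 and 12 passed.

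**Figure D4:**
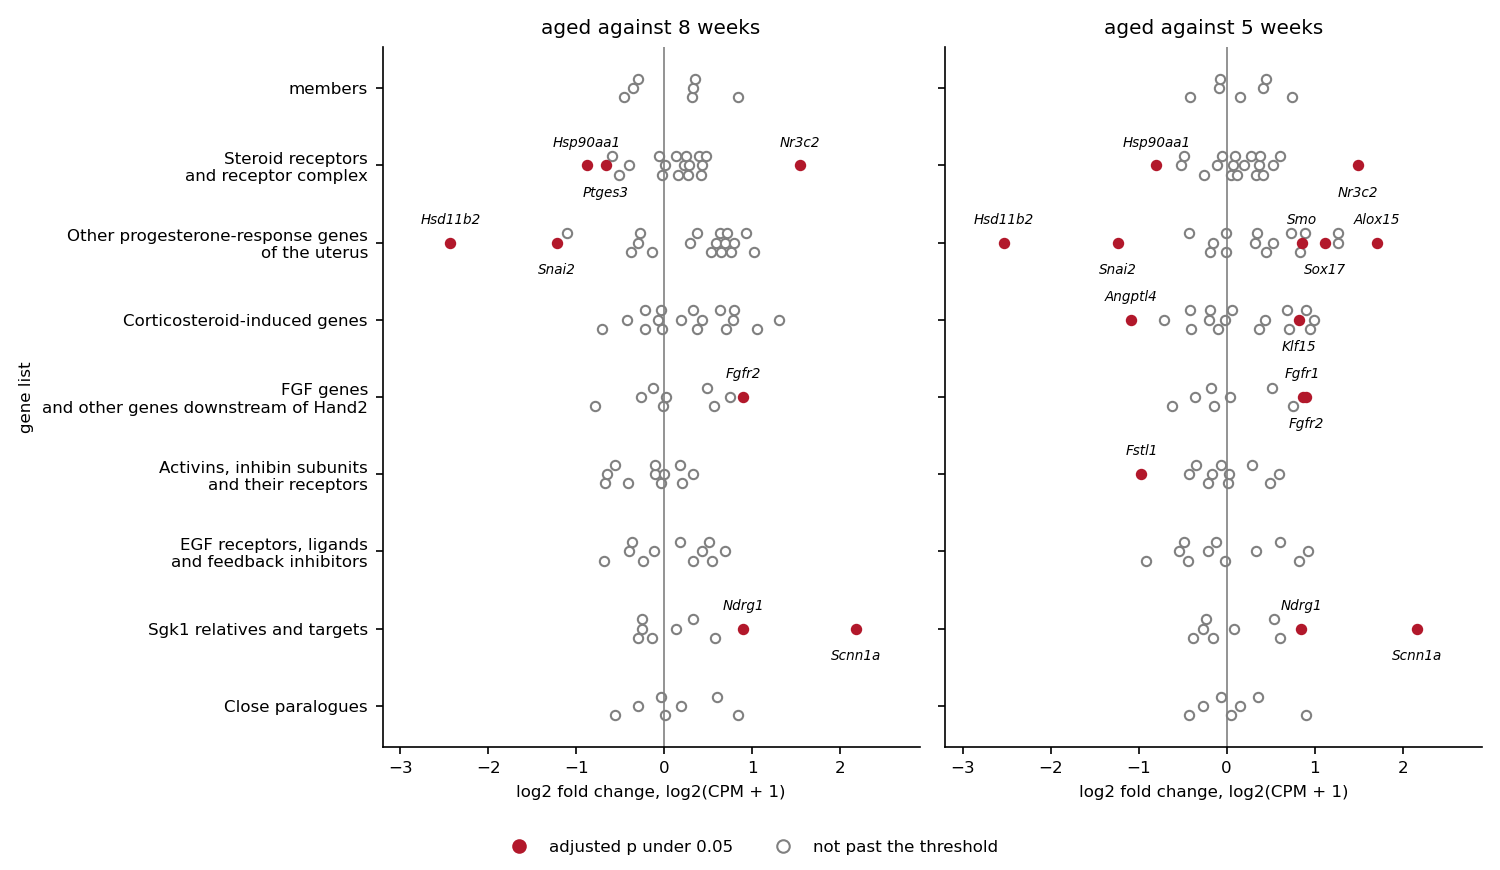
Log2 fold change of each measured gene of the members and of 8 pathway lists, aged against 8 weeks (left) and 5 weeks (right), 1 dot a gene, filled where the adjusted p is under 0.05. The height of a dot within its row has no meaning, and Hsd11b2 and Scnn1a lie farthest out among the filled dots of both panels while all members are open.

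Near Fst in the pathway, 11 of 13 activins, inhibin subunits and receptors were measured, with medians of -0.10 and -0.07. Against 8 weeks 0 passed, beside 17.2% of all genes, and against 5 weeks 1 passed, beside 22.1%. This was Fstl1, a secreted relative of follistatin, which fell by 0.97 ± 0.29 (adjusted p = 0.0231). The call ended without 5w replicate 1 (-0.67, adjusted p = 0.0562). Of the EGF receptors, ligands and feedback inhibitors around Errfi1, 0 of 11 measured (of 14) passed in either comparison, beside those same shares. The medians were 0.18 and -0.12. Of 14 close paralogues of the members, 7 were measured and 0 passed in either comparison, again beside the same shares of all genes. Nr2f6 differed by 0.19 ± 0.28 against 8 weeks and Sgk3 by -0.30 ± 0.19, and Gata6, with the largest difference of the 7, by 0.83 ± 0.33 (adjusted p = 0.0864).

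Markers of other cells moved with age beside these values. Of 7 lymphatic endothelial markers 5 rose against 8 weeks and 5 against 5 weeks, and their summed level was 90.0 to 382 CPM at 5 weeks, 73.9 to 720 at 8 weeks and 465 to 852 in aged uteri. All 4 red blood cell markers measured (of 5) rose against 8 weeks and 0 against 5 weeks. Of all genes 8.64% and 12.7% rose. Of 10 smooth muscle markers 1 and 3 rose against 8 and 5 weeks, with median log2 differences of 0.55 and 0.75. The leukocyte medians were 0.72 and 0.92 (1 and 2 of 6 rose) and the blood vessel medians 0.44 and 0.62 (0 and 1 of 8 rose). The epithelial medians were -0.38 and -0.54, though of 10 markers 1 rose in each comparison and 1 fell, against 5 weeks. Of 10 endometrial stromal markers 0 passed against 8 weeks, and Col1a2 fell by 0.89 ± 0.26 against 5 weeks (adjusted p = 0.0213). The part of these cells in the values of the members was not tested.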

How the data were processed

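Whole-uterus RNA was measured in 21 samples. The authors deposited CPM values that sum to 1e+06 per library. Per the submitters' processing notes, the tools were fastp, STAR, featureCounts and edgeR on GRCm38, with no versions. Whether reads were counted by strand is not stated in the labels. The lowest value of any listed gene is worth 10 reads, so genes low in 1 library are missing. Libraries were named by column header, which left 20, since 1 file held no numbers. Aged replicate 3 was not analysed here. Lengths and coordinates are from GENCODE release 21 (GRCm38).

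CPM values were tested as log2(CPM + 1) with limma 3.58.1 (R 4.3.3), a trended prior, age group and set as terms, all 20 libraries and Benjamini-Hochberg adjustment over 12791 genes at 0.05. An interaction fit gave differences between sets. The script was tested on simulated data. Pairs were tested by permuting libraries (scipy 1.17.1, Python 3.11.15). Genes named are all members, list genes past the threshold against 8 or 5 weeks (up to 4 per list and comparison, by size), Pgr, Esr1, Nr3c1 and the 3 genes most like each member. Paralogues were named after their values were seen. The members and lists were chosen with earlier results of these data known. Alternatives were pseudocounts of 0.1 and 5, a filter at a mean CPM of 1, other scalings, other set terms, single sets, naming by file and each library left out. Total reads over the listed genes were computed by taking the smallest step between CPM values as 1 read. Every value was a whole multiple of its library's step within 0.001 of a read, but the lowest was 10 steps, so the worth of a step is inferred. The precision that depth gives covers counting error only.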

Additional observations from a re-analysis of the deposited data

Results flagged for a closer look

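The members were screened for a library far from the others in 42 groups of 4 to 7 libraries, of which chance marks about 1 in 20. Sgk1 was at 132.5 CPM in 5w replicate 7, above the other 5-week libraries among all 7 and among the 5 of the later set. In the later set the others lay between 62.2 and 75.8 CPM. Among the 7, its gap to the next library was 0.570 of the range on the log2 scale, just past the limit of 0.568. Errfi1 was at 379.2 CPM in aged replicate 5, far above the other aged libraries both among all 6 and among the 4 of the later set, where the others lay between 107 and 124 CPM.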

How the results depend on the processing

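Between aged and 8-week uteri 2196 genes were called, and 0 of 7 members. The count was 969 with no set term, 183 in the later and 3613 in the earlier set alone, 565 with columns named by file, 3319 with the ribosomal protein sum as covariate and 1309 to 2617 with a library left out (1309 without aged replicate 1, 1358 without 8w replicate 2, 1454 without 8w replicate 1). Against 5 weeks 2825 genes were called, 1380 with no set term and 523 in the later set alone. The differences between sets in these comparisons were called for 3 and 0 genes, for 16 and 1 with a pseudocount of 5, 64 and 6 under quantile normalization, 45 and 1 under median centring, 18 and 1 without the 2 libraries whose file names another age, and 0 to 49 and 0 to 14 with a library left out. Of pairs of members 3 were called, and 6 with the ribosomal protein sum regressed out.

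Some log2 differences that did not pass turned direction. In the later set alone Zbtb16 differed by -0.070 against 8 weeks and -0.14 against 5 weeks, and from 5 to 8 weeks Hand2 by -0.021 and Fkbp5 by -0.085. In the earlier set alone Fkbp5 differed by 0.11 (aged against 5 weeks) and Nr2f2 by -0.21 (8 against 5 weeks). Errfi1 from 5 to 8 weeks was -0.054 without the 2 libraries of another file age, Fkbp5 against 5 weeks 0.015 with the ribosomal covariate, and the set difference of Sgk1 -0.063 with columns named by file. With a library left out, the aged difference of Gata2 from 8 weeks ran from -0.017 to 0.52, and that of Fkbp5 from 5 weeks from -0.38 to 0.21 and of Errfi1 from -0.42 to 0.071. From 5 to 8 weeks Hand2 ran from -0.064 to 0.13, Gata2 from -0.11 to 0.23, Zbtb16 from -0.46 to 0.27 and Errfi1 from -0.13 to 0.41. Pgr, at -0.03 and -0.06 against 8 and 5 weeks, was 0.051 and 0.023 under quantile normalization, 0.014 against 8 weeks with no set term, 0.19 and 0.034 in the earlier set alone, 0.17 and 0.039 by file, 0.093 and 0.054 without the 2 libraries, 0.040 and 0.016 with the ribosomal covariate, and -0.34 to 0.20 and -0.33 to 0.18 with a library left out. The set difference of Sgk1 passed under quantile normalization (0.53, adjusted p = 0.0239), as did that of Errfi1 (0.87, adjusted p = 0.0396), which also passed without 5w replicate 3 (0.73, adjusted p = 0.0368). The causes were not tested.

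With the replicate block in place of the set, 1637 genes were called against 8 weeks, 2413 against 5 weeks and 0 between 8 and 5 weeks, and Pgr differed by 0.087 and 0.060. The numbers did not pair the libraries: over 13 same-numbered pairs of the later set, deviations correlated with a mean r of 0.0039 (-0.505 to 0.279), and 1 of 14 libraries correlated best with its own number. The planned count tests (edgeR and DESeq2 on recovered reads) were not run, because no listed value is as low as 1 read and the reads are inferred from the step alone. The ribosomal covariate, the fits without the 2 libraries and the alternatives for the set difference and for pairs with a library left out were added after the data were seen.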
